A study of Homo sapiens with 4 samples.

Results

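The 500 widest WDR5 peaks of DMSO-treated HSSY II cells were taken from a list of 35605 WDR5 CUT&RUN peaks by their length from start to end, with ties broken by the higher −log10 q-value. They ran from 1263 to 2434 bp, with a median of 1438 bp, whereas the median over the whole list was 302 bp. Together they covered 747702 of the 13772657 bp under WDR5 peaks. Members are these 500 peaks throughout. HSSY II is a human synovial sarcoma line that carries the SS18::SSX1 fusion. The cells were treated for 4 days with DMSO, the vehicle, or with 2.5 μM MS67, a PROTAC that joins a WDR5-binding moiety to a ligand of the E3 ligase VHL and thereby leads to degradation of WDR5. Chromatin was profiled by CUT&RUN for WDR5 and for SS18::SSX under each treatment, with 1 library per condition, and each library came from 1000000 HSSY II cells plus 50000 murine NIH-3T3 cells (5%) as the spike-in. No marker of cell identity was measured, so the label of the line was not checked here. With single libraries, differences between treatments have no replicates behind them and were not tested.

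WDR5 is a core subunit of the KMT2/MLL complexes, which methylate histone H3 at lysine 4 around active start sites. In CUT&RUN, micrococcal nuclease tethered to an antibody releases the DNA around the bound protein, so a peak marks a stretch where fragments pile up above the local background. A wide peak is a long unbroken stretch of such signal. SS18::SSX is the fusion protein that defines synovial sarcoma, and it acts from within SWI/SNF chromatin-remodeling complexes, often at CpG-rich DNA.

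The DNA under the summits of 6 members is printed to show the range of sequence within the group. They are the 3 widest members at a promoter, 2 of the 3 with the most bp under WDR5 peaks with MS67, and the widest member that holds no start site. Each is 200 bp around the WDR5 summit in hg38, and capitals mark matches to the SP/KLF core GGGCGG on either strand.
*SP7*, chr12:53344997-53345196, plus strand: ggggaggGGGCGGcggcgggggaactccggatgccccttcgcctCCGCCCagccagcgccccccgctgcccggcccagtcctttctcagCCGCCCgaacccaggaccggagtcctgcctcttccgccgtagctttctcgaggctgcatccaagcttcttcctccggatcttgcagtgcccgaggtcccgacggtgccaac
*WDR86-AS1*, chr7:151410458-151410657, plus strand: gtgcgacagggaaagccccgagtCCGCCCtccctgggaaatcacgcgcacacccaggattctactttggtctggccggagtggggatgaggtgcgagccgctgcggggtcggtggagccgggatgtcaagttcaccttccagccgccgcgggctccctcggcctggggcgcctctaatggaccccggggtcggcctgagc
*GLIS3*, chr9:4297679-4297878, plus strand: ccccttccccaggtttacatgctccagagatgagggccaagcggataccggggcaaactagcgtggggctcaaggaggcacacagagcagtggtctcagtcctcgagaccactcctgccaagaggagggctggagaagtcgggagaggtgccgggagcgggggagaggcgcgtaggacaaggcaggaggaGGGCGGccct
*DUSP22*, chr6:291593-291792, plus strand: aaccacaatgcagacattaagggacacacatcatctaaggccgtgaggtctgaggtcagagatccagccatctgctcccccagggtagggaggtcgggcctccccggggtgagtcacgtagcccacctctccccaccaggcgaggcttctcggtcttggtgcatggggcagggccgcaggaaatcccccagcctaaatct
ENSG00000269106 and *ZNF446*, chr19:58475456-58475655, plus strand: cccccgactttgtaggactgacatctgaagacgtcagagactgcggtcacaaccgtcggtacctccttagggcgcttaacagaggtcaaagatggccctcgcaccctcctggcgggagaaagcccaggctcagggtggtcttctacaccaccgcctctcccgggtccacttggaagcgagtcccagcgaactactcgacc
Nearest to ENSG00000235840, chr2:120314299-120314498, plus strand: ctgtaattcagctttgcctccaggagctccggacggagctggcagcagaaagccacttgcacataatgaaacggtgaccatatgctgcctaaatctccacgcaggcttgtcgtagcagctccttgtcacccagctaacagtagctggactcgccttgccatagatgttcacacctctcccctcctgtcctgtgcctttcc
The *SP7* window held 3 matches to the SP/KLF core, the *WDR86-AS1* and *GLIS3* windows held 1 each, and the other 3 windows held 0. CpG dinucleotides numbered 19, 18, 10, 7, 13, and 6 in the order printed, against a median of 13 over all members and 6 over the whole WDR5 list. The windows were searched on both strands for 7 short motifs, none of which contains another. The SP/KLF core was the most frequent and occurred in 205 member windows (41.0%, 95% CI 36.7 to 45.5), in 23% of the windows of all WDR5 peaks, and in 36.0% of those of all WDR5 peaks at a promoter. CTCGCG, found in ZBTB33 and related sites, occurred in 15.0% of the member windows, in 6.58% of all windows, and in 11.6% of those of all WDR5 peaks at a promoter. CCAAT, the NFY core, went the other way, with 11.6% of the member windows and 16.8% of all windows. The NRF1 core GCATGC (2.4% of member windows and 4.19% of all windows) and the ETS core CCGGAAG (1.80% and 2.43%) were rare in both. The E-box CACGTG (4.00% and 4.34%) was too, as was the YY1 core ATGGCGG (2.2% and 1.64%). The members were richer in CpG than the list at large, and the part of base composition in these frequencies was not tested. A match is a string of letters and not a measured binding site.

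Peak width is what the members were chosen by, so the other WDR5 values from the same library are given as a description. The fold enrichment at the summit had a median of 6.0 (2.71 to 11.1), and the −log10 q-value had a median of 9.48 (3.71 to 55.6). For a comparison of peak sets the study required a −log10 q above 3 and a fold above 6 of WDR5 peaks, which 251 members (50.2%) and 17.9% of all WDR5 peaks met, so 249 members would not be counted by that standard. The summit pileup, the number of overlapping fragments recovered from the fold and p-value of each peak, had a median of 23 fragments (10 to 128), against 13.0 over all WDR5 peaks. At the median the members were thus higher as well as wider than the list. Their local background was also higher, with a median of 2.86 against 1.81 fragments per bp. The last member lay on chromosome 17 (77734540 to 77735802), 7069 bp from the start site of *LINC01987*, and was 1263 bp wide with a −log10 q of 15.0. The first peak left out had the same width and a −log10 q of 10.5, and it lay at the promoter of *ACHE*, the acetylcholinesterase gene. At that width 2 peaks were inside and 2 outside.

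Library depth bears on the comparisons of MS67 with DMSO described here, and it differed in opposite directions for WDR5 and SS18::SSX. Recovered genome-wide coverage was 0.368 fragments per bp for WDR5 with DMSO and 0.168 with MS67, a ratio of 0.458, and it was 0.541 and 0.737 for SS18::SSX with DMSO and MS67. The WDR5 MS67 list held 14123 peaks, the SS18::SSX DMSO list 15141, and the SS18::SSX MS67 list 1175.

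The members lay largely over gene starts. A start site of a protein-coding or long noncoding RNA gene (GENCODE 44) fell inside 388 of the 500 members (77.6%, 95% CI 73.7 to 81.2, exact Clopper-Pearson), whereas 19.8% of all WDR5 peaks held one. Here and below the intervals cover counting error only. A long peak holds a start site more readily by its length alone, and among the next 500 peaks by width the share was 64.2%. A promoter was taken as the stretch that begins 1000 bp before a start site and ends 100 bp after it. The centre of 261 members (52.2%, 95% CI 47.7 to 56.7) lay at a promoter, beside 33.7% of all WDR5 peaks and 47.0% of the next 500. Of the other members, 69 (13.8%) were centred in an exon, 125 (25%) in an intron, and 45 (9.0%) between genes. Of the 239 members centred outside a promoter, 132 (55.2%) held a start site and 149 (62.3%) overlapped a promoter by at least 1 bp. Over all members, 410 (82.0%) overlapped a promoter by at least 1 bp.

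In total, 473 genes started inside members, 382 of them protein-coding and 91 of them for long noncoding RNA. The protein-coding genes were 1.91% of the 20033 annotated, and 27.8% of all protein-coding genes started inside a WDR5 peak of any width. A protein-coding start site lay inside 359 members, and 29 members held the start of a long noncoding RNA gene but of no protein-coding gene. At 24 members 2 or more protein-coding genes started inside the same peak, and 18 members held protein-coding starts on both strands. The median distance from the WDR5 summit to the start site of the gene that names the peak was 218 bp.

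Ribosomal protein genes, which the study reports as WDR5 targets in HSSY II cells by CUT&Tag, were not among the genes at members. The study assigned genes by annotation of peaks, whereas a gene counted here only with a start site inside a peak. It also reports a high correlation between the WDR5 signals of CUT&Tag and CUT&RUN. In the list used here, 7.78% of cytosolic ribosomal protein genes started inside a WDR5 peak of any width, beside 27.8% of all protein-coding genes. None of 90 cytosolic ribosomal protein genes, 78 mitochondrial ribosomal protein genes, 74 genes of translation factors, or 29 small nucleolar RNA host genes started inside a member, although 7, 23, 21, and 10 of them started inside a WDR5 peak of some width. Read against the 1.91% of all protein-coding genes, a count of 0 in lists of these sizes is near the background. The developmental families HOX (39 genes), FOX (52), SOX (19), TBX (16), and PAX (9) also had 0 genes at members. Developmental genes outside these lists did start inside members. Among them were the Wnt ligand genes *WNT2* (rank 5), *WNT10B* (109), and *WNT1* (347). The homeobox genes *TLX2* (80), *LBX2* (92), *MEOX2* (96), and *NKX1-2* (173) did too. These Wnt and homeobox genes were picked after seeing the data, from the 382 protein-coding genes at members. No list was made for their families, so no share of them is given and no theme is read from them. The replication-dependent histone genes (73), the KMT2 complex (19), SWI/SNF (28), the MYC network (13), and the immediate early genes (26) had 0 as well. A last list of 10 genes also had 0. It held *MNX1*, *SOX8*, *NTSR1*, *SIM2*, *FOXC1*, and *FZD10*, which the study names as synovial sarcoma oncogenes or developmental genes. It also held *RPL7* and *RPL35*, named there as ribosomal protein genes, and *TLE1* and *BCL2*, which the study's text does not name.

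The lists with genes at members were few. *CDKN2A*, which encodes the cell cycle inhibitors p16 and ARF, was 1 of 12 genes of cyclins and CDK inhibitors, and its member ranked 15 by width (chromosome 9, 21994168 to 21996198). *CDKN2B-AS1* started in the same peak, of which 2.66% lay under SS18::SSX and 18.6% under WDR5 peaks with MS67. *KDM2B*, the subunit that brings a variant Polycomb complex to unmethylated CpG islands, was 1 of 32 Polycomb genes, at rank 64. *DDX56*, an RNA helicase gene, was 1 of 114 genes of splicing factors and helicases, at rank 448.

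The ZNF zinc finger genes, most of which encode DNA-binding repressors, had 8 of 509 genes here (1.57%), a share close to the 1.91% of all protein-coding genes. The widest of these members were at *ZNF17*, *ZNF256*, *ZNF446*, and *ZNF497*, all on chromosome 19. WDR5 peaks with MS67 covered 49.5% of the *ZNF17* member, 720 bp of 1441 at *ZNF256*, 90.5% of that at *ZNF446*, and 71.2% of that at *ZNF497*. All 4 shares lay above the upper quartile of all members, which was 40.9%. The other 4 were at *ZNF438* (56.1%), *ZNF689* (48.1%), *ZNF324B* (59.8%), and *ZNF860*, which had no WDR5 peak with MS67. SS18::SSX peaks with DMSO lay on 2 of the 8, at *ZNF256* (21.3% of the length) and *ZNF324B* (17.2%).

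The widest member of all, of 2434 bp, lay over the start of *SP7*, the transcription factor of osteoblast differentiation also known as Osterix (chromosome 12, 53344322 to 53346755). Its summit pileup was 26 fragments in the WDR5 DMSO library and at most 14 in the WDR5 MS67 library, where 2 peaks covered 951 bp (39.1%), and neither SS18::SSX library had a peak there. The 2 WDR5 peaks with MS67 lay on either side of the *SP7* start site. The second, of 2409 bp, lay at *WDR86-AS1* and *WDR86* (chromosome 7, 151408733 to 151411141), with 27 fragments at the WDR5 summit with DMSO and 12 with MS67, where 1 peak covered 12.1%. An SS18::SSX peak of DMSO cells reached into it by 5 bp. The third, of 2360 bp, lay at *GLIS3*, a Krüppel-like zinc finger factor of pancreas and thyroid (chromosome 9, 4297544 to 4299903). The *GLIS3* summit pileup was 29 fragments with DMSO, and no WDR5 peak was called with MS67, while 2 SS18::SSX peaks with DMSO covered 855 bp (36.2%) and 1 SS18::SSX peak was called with MS67.

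The fourth (2284 bp) lay at ENSG00000285693 and *ATG16L2* on chromosome 11 and had no SS18::SSX peak, with 25.9% of its length under WDR5 peaks with MS67. The fifth lay at *WNT2*, a secreted Wnt ligand (chromosome 7, 117322563 to 117324764). Its summit pileup was 39 fragments with DMSO and 23 with MS67, and WDR5 peaks with MS67 covered 29.9% of it and SS18::SSX peaks 6.77%. *GLIPR2* (2149 bp) had 28.6% and 8.05% by the same measures. Both had little of their length under SS18::SSX.

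*DUSP22*, a dual-specificity phosphatase gene, had the longest cover with MS67 (chromosome 6, 291594 to 293735). A single WDR5 MS67 peak took up 1943 of its 2142 bp (90.7%) and was the widest peak of the MS67 list. The pileup was 56 fragments with DMSO and 38 with MS67, and the local background with DMSO was 8.43 fragments per bp, above the member median of 2.86. *CAV1*, the main protein of caveolae (2095 bp), and *KLF15*, a Krüppel-like factor of metabolic tissues (2093 bp), had the most SS18::SSX of the 10 widest. At *CAV1*, 3 SS18::SSX peaks covered 53.5% and 1 WDR5 peak with MS67 covered 15.5%, and at *KLF15* 1 SS18::SSX peak covered 42.4% and no WDR5 peak was called with MS67. Among the 10 widest, those at *GLIS3* and *KLF15* alone lacked a WDR5 peak with MS67, and SS18::SSX covered 36.2% and 42.4% of these 2.

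**Figure D1:**
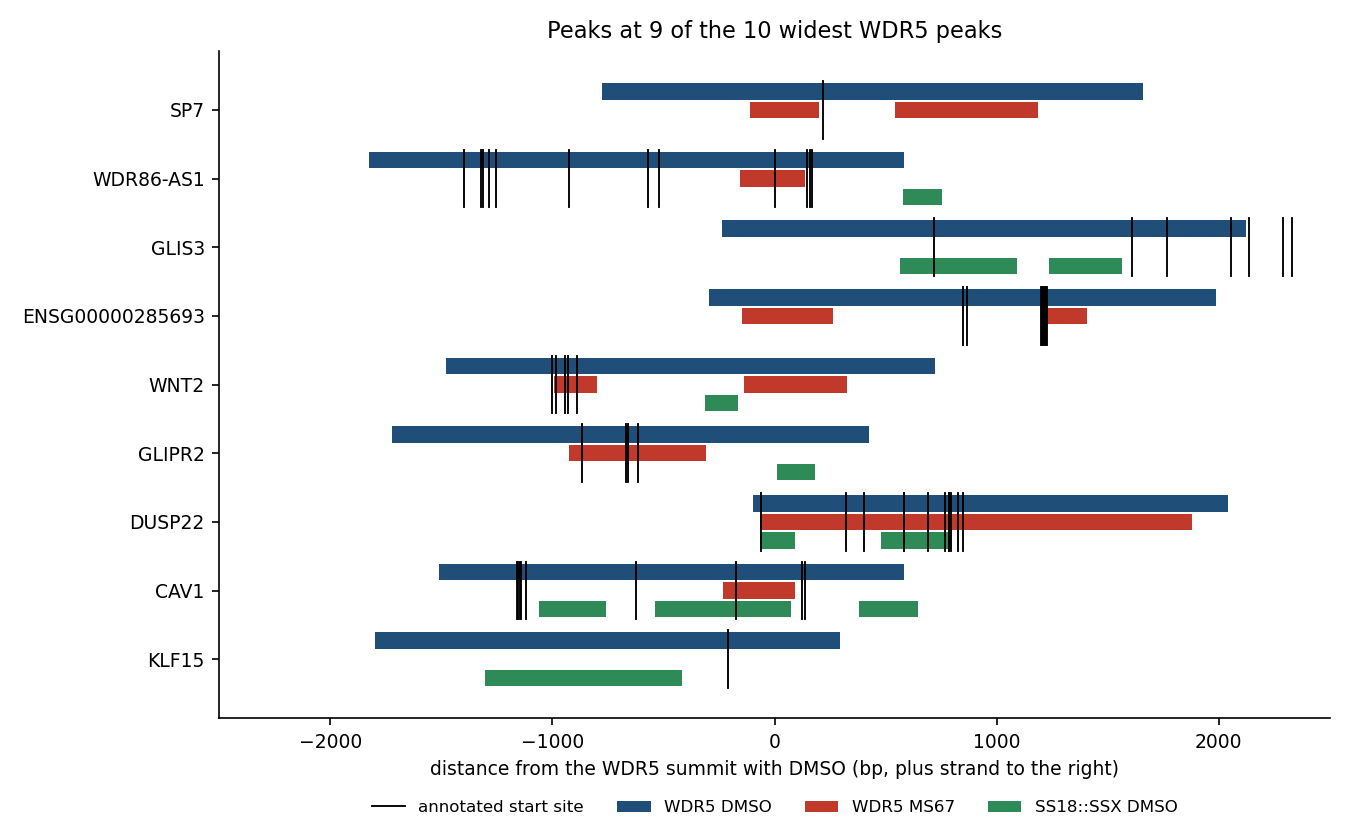
Peaks at 9 of the 10 widest members, drawn to scale by distance in bp from the WDR5 summit with DMSO; blue bars are WDR5 peaks with DMSO, red bars WDR5 peaks with MS67, green bars SS18::SSX peaks with DMSO, and black lines annotated start sites. The red bar fills 90.7% of the *DUSP22* member and is missing at *GLIS3* and *KLF15*.

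SS18::SSX peaks of DMSO-treated cells touched nearly as many members as they left free. An SS18::SSX peak overlapped 247 members by at least 1 bp (49.4%, 95% CI 44.9 to 53.9), beside 13.9% of all WDR5 peaks and 39.2% of the next 500 by width. Since a longer peak is touched more often, 2 measures that do not grow with length by construction were added. The WDR5 summit lay within an SS18::SSX peak at 94 members (18.8%, 95% CI 15.5 to 22.5), beside 8.39% of all WDR5 peaks and 15.0% of the next 500. SS18::SSX peaks covered 108683 bp of the members, 14.5% of their length, beside 8.36% of the length of all WDR5 peaks and 12.0% for the next 500. By each measure the members were above the list, by a smaller factor for summits and length than for touching peaks. Other WDR5 peaks with a summit pileup of at least 23 fragments had 16.7% of their length under SS18::SSX, and members of that pileup had 16.3%, so among high peaks the covered share was alike.

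SS18::SSX mostly took up a small piece of a member. Of the 247 members, 180 held 1 SS18::SSX peak, 56 held 2, and 11 held 3, and the median covered share among them was 21.9%. At least 50% of the length was covered at 42 members (8.40%, beside 6.92% of all WDR5 peaks and 7.20% of the next 500 by width). The 325 SS18::SSX peaks on members were 2.15% of the SS18::SSX list, and of the 500 widest SS18::SSX peaks 23 (4.60%) lay on a member.

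The exceptions were nearly filled by SS18::SSX. At *PRDM14*, a factor of germ cells and pluripotency (rank 37, chromosome 8), 1 SS18::SSX peak with a −log10 q of 16.6 covered 1681 of 1847 bp (91.0%), and WDR5 peaks with MS67 covered 14.3%. At *TNK2-AS1* and *TNK2*, which encodes a nonreceptor tyrosine kinase (rank 95, chromosome 3), 1 SS18::SSX peak covered 88.8% and had the highest −log10 q of any on a member, 23.6, and WDR5 peaks with MS67 covered 42.4%. The member at *LINC01586* (rank 271) was covered whole, and that at *LAMA3*, a laminin subunit gene (rank 179), by 84.6%. WDR5 peaks with MS67 covered 24.7% and 19.1% of these 2, close to or below the member median of 24.2%. The local background at *TNK2-AS1* was 7.81 fragments per bp. The other SS18::SSX peaks of highest −log10 q lay at *SDC2*, which encodes a heparan sulfate proteoglycan (12.8), at ENSG00000235840 (14.8), and near *INHBB*, an activin subunit gene (18.8). The *INHBB* member stood on the highest local background of the 3, 18.6 fragments per bp.

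**Figure D2:**
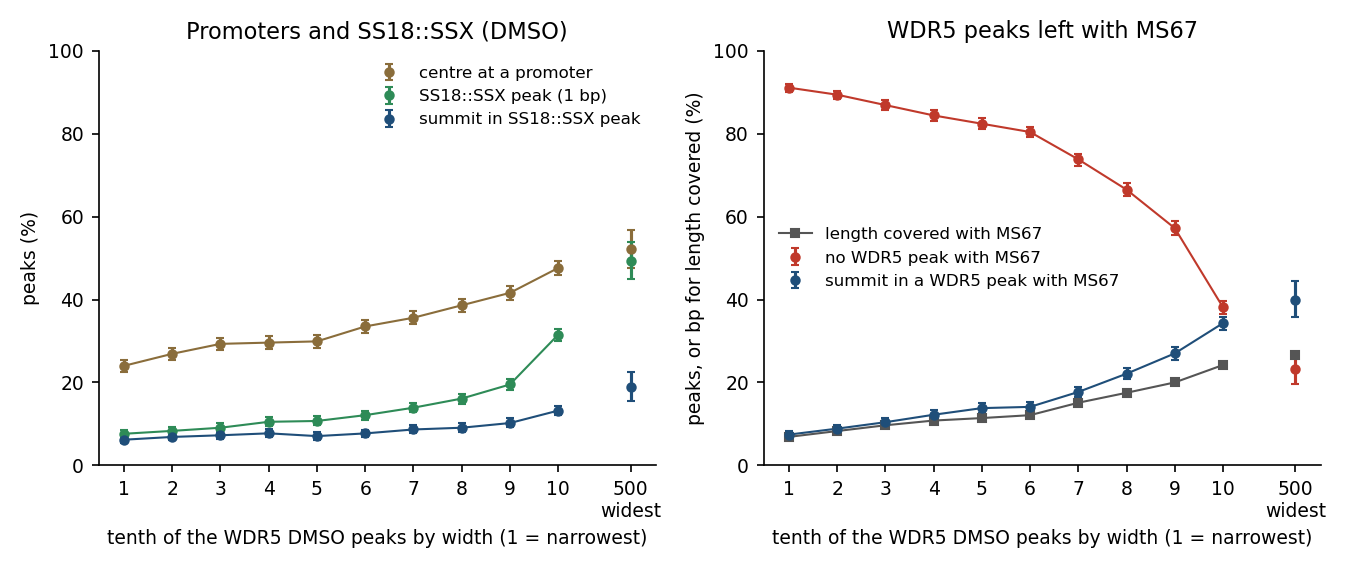
Shares of WDR5 DMSO peaks (y axis, percent) in 10 equal groups by width and in the 500 widest, which are also part of group 10; points are shares and bars 95% exact binomial intervals, and grey squares are the percent of summed length under WDR5 peaks with MS67. From group 1 to group 10 the share with an SS18::SSX peak goes from 7.61% to 31.5% and the share with no WDR5 peak with MS67 from 91.1% to 38.1%.

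With MS67, WDR5 peaks were called at most members but over a small part of their length. At least 1 WDR5 MS67 peak overlapped 384 members, and 116 had none (23.2%, 95% CI 19.6 to 27.2), beside 75.0% of all WDR5 peaks and 31.6% of the next 500 by width. The MS67 peaks covered 198349 bp, 26.5% of the members' length, beside 16.8% for all WDR5 peaks and 24.8% for the next 500. The median member had 24.2% of its length covered (interquartile range 10.5 to 40.9%), and at least 50% was covered at 78 members (15.6%, beside 12.9% of all WDR5 peaks). The WDR5 summit of DMSO cells lay in an MS67 peak at 200 members (40.0%, 95% CI 35.7 to 44.4), beside 16.8% of all WDR5 peaks and 35.8% of the next 500 by width.

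The MS67 library was the shallower one. Multiplied by the coverage ratio of 0.458, the median member summit would stand at 10.5 fragments and the lowest at 4.58, while the MS67 list held peaks from 3 fragments upward. The part of depth in the uncovered length was not tested. Among the members, the 100 with the lowest pileup (10 to 17 fragments) had no MS67 peak in 36.0% and 19.8% of their length covered, and the 100 with the highest (29 to 128) had none in 12.0% and 36.5% covered. Other WDR5 peaks with at least 23 fragments had 24.9% of their length covered with MS67, and members of that pileup had 31.0%. At that pileup 59.3% of the other peaks and 17.3% of the members had no MS67 peak, a measure that favours long peaks.

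**Figure D3:**
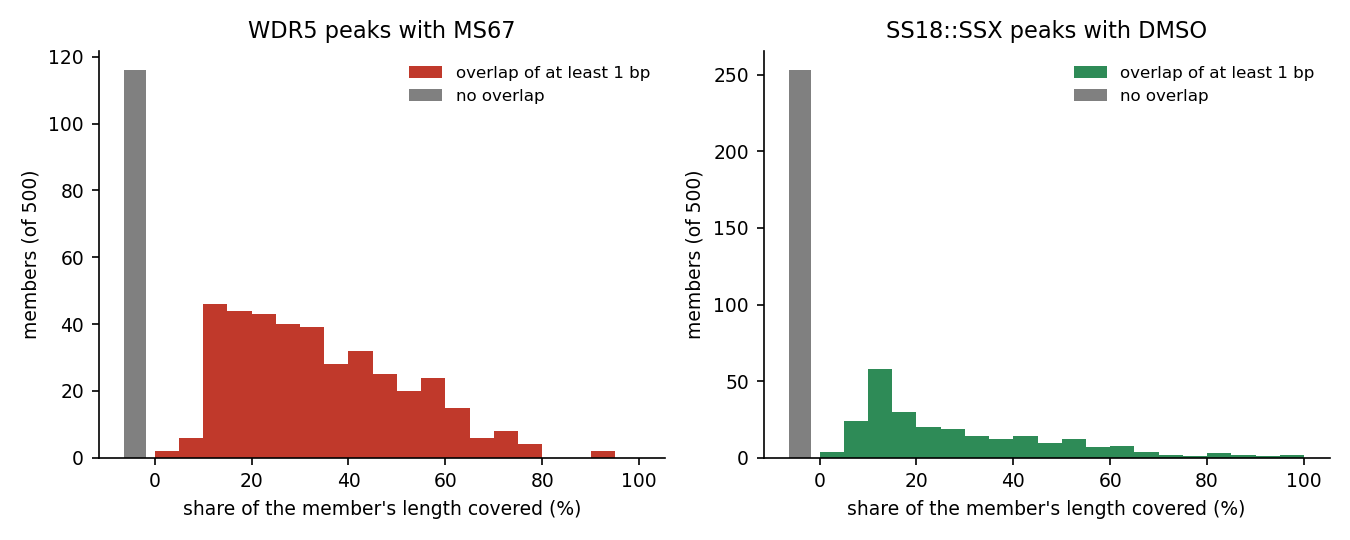
Number of members (y axis) by the percent of their length under WDR5 peaks with MS67 (left) or SS18::SSX peaks with DMSO (right), in bins of 5 percentage points, with members that have no overlap as a grey bar. In the left panel most members with an overlap lie between 10% and 80%, beside 116 at 0, whereas the right panel has 253 members at 0.

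What was left of a wide peak was usually 1 narrow piece. A single MS67 peak lay on 261 members, 2 on 112, and 3 on 11. These 518 MS67 peaks had a median width of 321 bp, against 224 bp for the MS67 peaks elsewhere, and 97.0% of their summed length lay inside the members. Of the 500 widest MS67 peaks, 70 (14.0%) were on a member. Besides *DUSP22*, long stretches were covered at *HGH1* (1311 bp, 71.6%), at ENSG00000269106 and *ZNF446* (1278 bp, 90.5%), and at *CREM*, a cAMP-responsive transcription factor (1140 bp, 76.8%). Of these 4, *CREM* and *DUSP22* stood on local backgrounds of 8.97 and 8.43 fragments per bp, and *HGH1* and *ZNF446* on backgrounds of 3.07 and 3.98.

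Besides *GLIS3* and *KLF15*, the widest members with no MS67 peak were at *INSM2*, a zinc finger gene of neuroendocrine cells (rank 21), ENSG00000286728 (rank 25), and *RPS6KA2*, a ribosomal S6 kinase gene (rank 26). Their WDR5 summit pileups with DMSO were 24, 30, and 13 fragments. All 5 had an SS18::SSX peak with DMSO, which covered between 7.44% (*RPS6KA2*) and 63.4% (ENSG00000286728) of the length. Such a peak lay on 56.9% of all 116 members without an MS67 peak, on 47.1% of those with one, and on 66.0% of the 100 widest members. The CpG content of the 5, from 8.39 to 11.4 per 100 bp, lay above the member median of 6.69.

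The MS67 peaks covered the middle of the members more than their ends and were most frequent near the start site, though most start sites had none over them. When each member was cut into 5 equal parts, read in the direction of its gene, MS67 peaks covered 18.7%, 35.6%, 34.9%, 29.2%, and 14.3% of the parts in order. SS18::SSX peaks with DMSO covered them evenly, with 13.6%, 15.4%, 15.1%, 15.4%, and 13.2%. At the 341 members whose protein-coding start sites were all on 1 strand, the WDR5 peak with DMSO reached a median of 577 bp upstream of the start site (interquartile range 379 to 896) and 892 bp downstream (612 to 1115). It was longer on the downstream side at 214 of them (62.8%), beside 57.7% of the 5381 other WDR5 peaks with such a start site, whose medians were 200 and 238 bp. At the start site itself 34.6% of the 341 were under a WDR5 peak with MS67 and 12.0% under an SS18::SSX peak with DMSO. At 750 bp into the gene 64.8% were still under WDR5 with DMSO, 12.0% under WDR5 with MS67, and 14.4% under SS18::SSX. The WDR5 cover with MS67 thus narrowed toward the start, while that of SS18::SSX was between 10.6% and 14.4% at the points read from 500 bp upstream to 750 bp downstream, and 9.38% at 1000 bp.

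**Figure D4:**
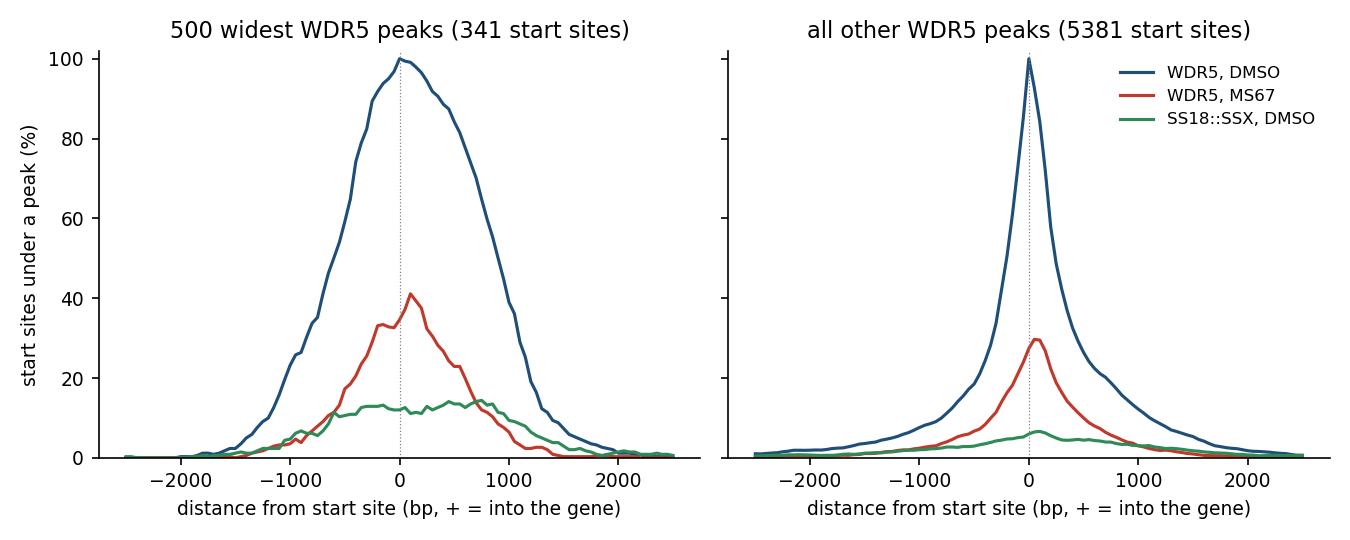
Percent of start sites under a peak (y axis) by distance from the start site in bp (x axis, positive into the gene), for the 341 members (left) and the 5381 other WDR5 peaks (right) with protein-coding starts on 1 strand; lines are WDR5 with DMSO (blue), WDR5 with MS67 (red), and SS18::SSX with DMSO (green). WDR5 with DMSO is at 100% at 0 bp because these peaks were chosen to hold the start site, and in the left panel the green line lies at 10.6% at 500 bp upstream, 14.4% at 750 bp downstream, and 2.93% at 1500 bp downstream, while the red line is highest near the start.

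CpG content separated the members by both other readouts. The members had a median of 6.69 CpG per 100 bp and 64.4% GC, against 3.30 and 58.5% over all WDR5 peaks. In 5 groups of 100 from the lowest to the highest CpG content, SS18::SSX with DMSO overlapped 32.0%, 41.0%, 48.0%, 56.0%, and 70.0%, and no WDR5 peak was called with MS67 at 17%, 16%, 21%, 23%, and 39%. The length under SS18::SSX was 10.8% in the lowest group and 21.6% in the highest, and that under WDR5 peaks with MS67 was 29.6% and 18.8%. The 95% intervals of the lowest and highest group were 23 to 42.1% and 60.0 to 78.8% for SS18::SSX. For the missing MS67 peak they were 10.2 to 25.8% and 29.4 to 49.3%. These intervals cover counting error over peaks of 1 library and test no difference. Median width (1437 and 1450 bp) was alike in these end groups, and the median pileup was 26.0 and 21.0 fragments. The end groups also differed in the share centred at a promoter, 25.0% and 59.0%, whose part was not tested. CpG-rich members were thus more often under SS18::SSX and less often still under WDR5 with MS67.

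The same order was seen among the members with a start site inside, where SS18::SSX overlapped 21.8% of the 78 of lowest CpG content and 70.5% of the 78 of highest, and the MS67 peak was missing at 14.1% and 38.5%. The next 500 peaks by width also had the highest shares in their most CpG-rich group, with SS18::SSX at 54% against 22% in the lowest group, and no MS67 peak at 44% against 35%, with a low of 22% between. Over all other WDR5 peaks SS18::SSX overlap went from 7.48% to 19.4%, but the missing MS67 peak went the other way, from 90.7% to 63.1%. Other peaks with a start site inside lay between, with the MS67 peak missing at 65.4% in the lowest group, 46.8% in the middle, and 61.3% in the highest. The libraries themselves differed in base composition, as the median WDR5 peak had 58.5% GC with DMSO and 62.7% with MS67, and the part of that in these values was not tested.

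**Figure D5:**
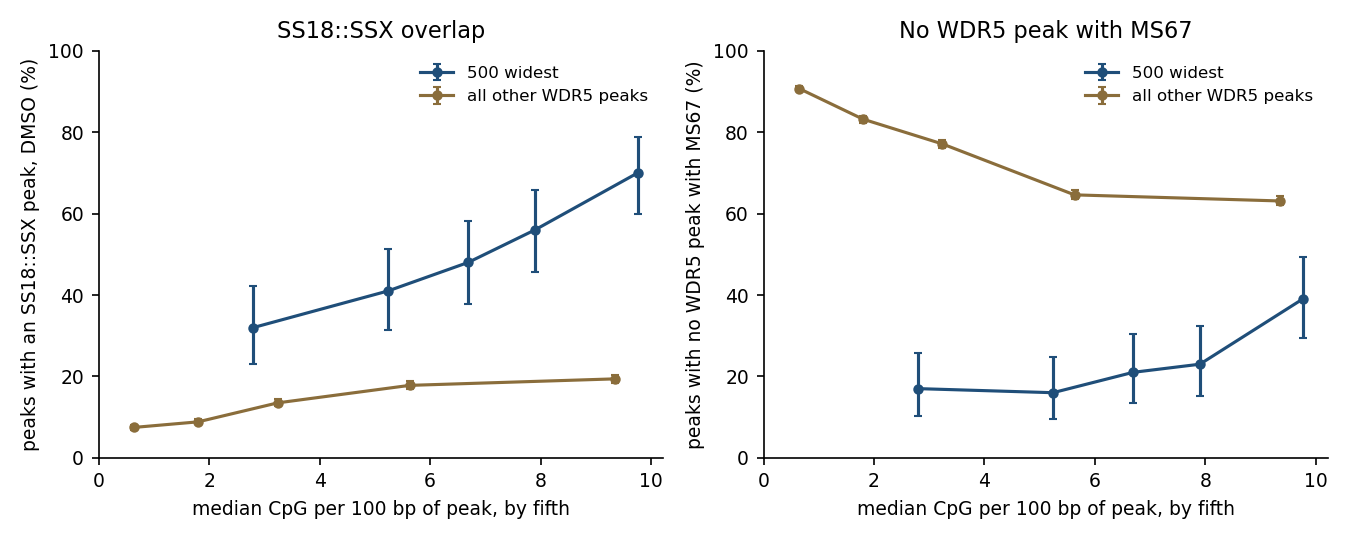
Percent of peaks with an SS18::SSX peak with DMSO (left) and with no WDR5 peak with MS67 (right) against the median CpG per 100 bp of 5 equal groups, for the 500 members (blue) and all other WDR5 peaks (brown), with 95% exact binomial intervals. In the left panel both lines go up, to 70.0% and 19.4%; in the right panel the members go up to 39% while the other peaks go down to 63.1%.

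Members with an SS18::SSX peak lacked a WDR5 peak with MS67 slightly more often than those without, with overlapping intervals. Of the 247 with SS18::SSX, 66 had no MS67 WDR5 peak (26.7%, 95% CI 21.3 to 32.7), and of the 253 without it 50 had none (19.8%, 95% CI 15.0 to 25.2). WDR5 peaks with MS67 covered 23.9% and 29.2% of the length of these groups, whose median pileups were 24 and 22 fragments. Within members, 23.7% of the bp under SS18::SSX with DMSO and 27% of the other bp were under WDR5 with MS67. The intervals of the 2 shares overlap.

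SS18::SSX itself had few peaks at members with MS67. The SS18::SSX MS67 list had 33 peaks on 31 members (6.20%, 95% CI 4.25 to 8.69), beside 1.20% of all WDR5 peaks and 5.40% of the next 500 by width, and they covered 1.77% of the members' length. The coverage of the SS18::SSX libraries was taken as the lowest local background among their called peaks. It was higher with MS67, at 0.737 fragments per bp, than with DMSO, at 0.541, and the part of depth in the number of peaks was not tested.

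The 112 members without a start site inside were close to all members in SS18::SSX overlap with DMSO and in WDR5 peaks with MS67. Of them, 50.9% had an SS18::SSX peak with DMSO, 23.2% had no WDR5 peak with MS67, and 25.3% of their length was under WDR5 with MS67. They differed in CpG content, with a median of 3.84 per 100 bp against 6.69 over all members. In the 100 members of lowest CpG content the SS18::SSX overlap was 32.0%. SS18::SSX with DMSO covered 17.3% of their length, against 14.5% over all members. An SS18::SSX peak with MS67 lay on 10.7%, against 6.20%. Their median local background was 3.70 fragments per bp, against 2.86. The widest lay on chromosome 2 (120313334 to 120315279), 4608 bp from the start site of ENSG00000235840. Its pileup was 64 fragments with DMSO and 21 with MS67 for WDR5 and 42 for SS18::SSX with DMSO, with 56.1% of its length under SS18::SSX and 49.0% under WDR5 with MS67. The 2 that followed lay near *LINC01798* (rank 22) and *ELOVL3*, a fatty acid elongase gene (rank 32), with 46.2% and 23.8% under WDR5 with MS67. Of members centred outside a promoter, the third in width was at *OXR1* (rank 12, chromosome 8), a gene of oxidation resistance, with its centre in an intron although 6 start sites lay inside it.

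A raised local background touched a minority of the members. Those in the tenth of the WDR5 list with the highest background (above 4.82 fragments per bp) numbered 72 (14.4%). Among them 72.2% had an SS18::SSX peak with DMSO, against 45.6% of the other 428, while the length under WDR5 with MS67 was 28.5% and 26.2%. The higher SS18::SSX share thus moved with the background, whose part was not tested.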

How the data were processed

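WDR5 and SS18::SSX CUT&RUN libraries of HSSY II cells were grouped by the target and treatment in their labels. The authors aligned reads to hg38 and mm10 with Bowtie2, removed nonprimary alignments with Samtools (the submitters' notes list SAMtools 1.9, bedtools 2.28.0, and deepTools 3.3.0) and duplicates with Picard, and called peaks with MACS2 in each library on its own. The command-line options of MACS2, any control, and any list of excluded regions are not given in the sources used here. The study's standard for comparing peak sets (−log10 q above 3, with fold above 3 for SS18::SSX or above 6 for WDR5) was not applied to the deposited lists, which hold peaks below it. For each peak, the deposited values were its coordinates, the summit fold (a ratio of pileup to the background around the peak), the −log10 p-value and −log10 q-value, and a score, the whole-number part of 10 times the −log10 q. No spike-in scaling enters them.

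Summit pileup and background were solved from fold and p-value, since MACS2 takes fold as pileup plus 1 over background plus 1 and p as the Poisson tail. A whole-number pileup met the −log10 p of 100% of peaks in all lists, with a tolerance of 0.001. The lowest background of a list was taken as its genome-wide coverage, and the step was tested on simulated data. Start sites were those of GENCODE 44, and sequence came from hg38. Overlaps counted from 1 bp, and covered length was the union of overlapping peaks. Shares have exact Clopper-Pearson intervals at 95%, without a test, because there was 1 library per condition.

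A peak was named by the gene whose start site lay inside it nearest to the summit, and otherwise by the nearest start site. Named were the 10 widest members, the 5 with the SS18::SSX peaks of highest −log10 q, the 5 with the most bp under WDR5 peaks with MS67, the 5 widest without such a peak, the 5 with the most SS18::SSX bp, the 3 widest centred outside a promoter, the peaks on either side of the width threshold, the genes of each list at members, and the 3 widest with no start site inside, of which only the first was part of the rule. Some members that the rule covers are not reported here. Developmental genes outside the lists were named after seeing the data. Sequences on chromosome 8 were passed over. The members, gene lists, and comparisons were chosen with earlier results of these data known. Alternatives were the number of peaks taken, merged neighbours, stricter peaks, other promoters, other overlaps, and leaving out members of high local background. The study's WDR5 standard was added as an alternative after seeing the data. Python 3.11.15 with numpy 2.4.6, pandas 2.3.3, scipy 1.17.1, pysam 0.24.0, and matplotlib 3.10.9 was used.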

Additional observations from a re-analysis of the deposited data

How the results depend on the processing

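Of 41 recomputed values of the 5 shares, 24 stayed within the 95% interval of the reported value and 17 moved out of it. For shares of length the interval was that of a share of 500 peaks. The SS18::SSX overlap was 56.0% for the 250 widest peaks and 44.3% for the 1000 widest, 18.8% by summit, 8.40% where at least 50% of the peak had to be covered, and 36.2% with SS18::SSX peaks of −log10 q and fold above 3, which covered 11.4% of the length. The share without a WDR5 peak with MS67 was 27.4% for the 1000 widest. With MS67 peaks of −log10 q above 3, that share was 37.6% and the covered length 21.6%, and with neighbouring MS67 peaks within 1 kb merged the covered length was 33.1%. The promoter share was 86.4% for promoters of 2000 bp to either side, 77.6% for a start site inside the peak, and 45.0% for protein-coding genes. Merging neighbouring WDR5 peaks within 1 kb before choosing the widest replaced most of the group, as 67 of the 500 merged regions held a member, and their length covered with MS67 was 15.1%. Under the study's WDR5 standard (−log10 q above 3 and fold above 6), an alternative chosen after seeing the data, the 251 members that met it had a promoter share of 57.8% and no WDR5 peak with MS67 at 19.5%, and the 500 widest peaks that met it had an SS18::SSX overlap of 44.2%. Each target and treatment had 1 library, so nothing here measures the variation between cultures, and the WDR5 MS67 library was the shallowest. No paired analysis was possible because each condition had 1 library and no test was made.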

Other observations

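The members were spread unevenly over the chromosomes. Over the whole list, 500 of 35605 peaks were members. The 3 highest shares were on chromosome 10 with 50 members, 2.26% of its WDR5 peaks (95% CI 1.68 to 2.97), chromosome 7 with 49 (2.12%), and chromosome 19 with 38 (1.96%). Chromosome 1, which had the most WDR5 peaks, held 47 of 3066 (1.53%, 95% CI 1.13 to 2.03). Chromosome 11 held 5 of 1544 peaks (0.324%, 95% CI 0.105 to 0.754), the lowest share of chromosomes 1 to 22 and X. The median local background of WDR5 peaks with DMSO was 2.4 fragments per bp on chromosome 10, 2.14 on chromosome 7, 1.81 on chromosome 19, and 1.53 on chromosome 11, against 1.81 over the list, and its part in these shares was not tested. Members had another WDR5 peak within 1 kb less often than the list at large, at 89 members (17.8%) beside 36.7%, a measure that depends on how the peak caller joins neighbouring stretches.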
